A study of Mus musculus with 4 samples.

Results

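The enzymes and carrier proteins that make small RNAs and put them to work were examined in 4 J558 clones. J558 is a plasmacytoma line from BALB/c mice, that is, a tumour of antibody-secreting cells. The set held 10 genes, chosen by symbol as every probe set annotated to Drosha, Dgcr8, Xpo5, Dicer1, Tarbp2, Ago1, Ago2, Ago3, Ago4 or Tnrc6a. All 10 were found, with 34 probe sets, among 18193 genes that had a probe set of a single symbol. Of the clones, 2 controls had received an empty silencing vector and 2 had received the same vector with a sequence against activation-induced cytidine deaminase (AID), the enzyme that starts antibody hypermutation and class switching. All 4 also carried a neomycin resistance vector and had been selected with G418. The labels arrange them as 2 pairs, each with 1 control and 1 AID-silenced clone, and each clone was hybridised once to an Affymetrix whole-genome mouse array. A group is thus 2 drug-selected clones of a single line. Each p-value and SE rests on the spread between clones, drawn by the test (limma) toward that of other probe sets of like signal. This spread mixes clonal with technical variation.

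MicroRNAs begin as hairpins in long primary transcripts. In the nucleus the Microprocessor, made of the RNase III enzyme Drosha and its RNA-binding partner Dgcr8, cuts the hairpin out, and Exportin-5 (Xpo5) carries it to the cytoplasm. There Dicer1, helped by the double-stranded RNA-binding protein Tarbp2, removes the loop, and an Argonaute protein (Ago1 to Ago4) keeps one strand as a guide to target mRNAs. Tnrc6a, a GW182 protein, bridges Argonaute to the machinery that shortens and decaps the target. Hairpins made from silencing vectors enter this pathway at the export step, so the same proteins serve both the cells' own microRNAs and vector-driven silencing.

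The Microprocessor also acts on mRNAs, and hairpins in the transcript of Dgcr8 itself are among its known substrates. The RefSeq tables (GRCm38.p6) place 6 mature microRNAs inside the bounds of 2 of the 10 genes, all on the strand of the host, and they are shown because they are products that leave a member's own transcript. Letters in capitals mark the seed, bases 2 to 8, which pairs with targets. Dgcr8 holds miR-1306 (5p arm chr16:18284288-18284310 and 3p arm chr16:18284248-18284268, minus strand) and miR-3618 (5p arm chr16:18284602-18284623 and 3p arm chr16:18284562-18284583, minus strand). Xpo5 holds miR-693 (5p arm chr17:46231551-46231571 and 3p arm chr17:46231581-46231603, plus strand).
miR-1306-5p: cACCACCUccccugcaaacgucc
miR-1306-3p: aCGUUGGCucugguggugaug
miR-3618-5p: uGUGAUUUccaauaauugaggc
miR-3618-3p: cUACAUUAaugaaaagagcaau
miR-693-5p: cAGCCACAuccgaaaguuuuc
miR-693-3p: gCAGCUUUcagauguggcuguaa
No seed was shared among these 6, and each was found in 1 mature sequence of the RefSeq table. Mature microRNAs are too short for these arrays, so no level of them is given.

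The arrays held 45101 probe sets, were scaled to a 2% trimmed mean signal of 500.0, and had median signals from 52.7 to 54.9. Values are MAS5 signals in arbitrary units, and differences are of log2(signal + 16), which understates changes of dim probe sets. All 9 measured plasma cell markers lay above the highest bacterial control signal on every array, with summed signals of 135657 and 171617 in controls, against 148675 and 175195 after silencing. Of 5 T cell markers, Cd3d and Cd4 lay below that signal on all arrays. Cd3e lay above it on 2 arrays, Cd3g on 1 and Cd8a on all 4. Summed T cell marker signals were 172 and 203 in controls, against 80.0 and 145 after silencing. The macrophage list summed to 1171 and 1062 against 1188 and 1006, most of it from Cd68, and the mature B cell list to 222 and 169 against 192 and 421. The level of the silenced gene, the check of the labels, is not reported here.

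No member of the pathway differed between AID-silenced and control clones by the adjusted test. Of 28 member probe sets bright enough to be tested, 0 had a limma adjusted p under 0.05 (the lowest was 0.9996), where 0.00888% of all tested probe sets did. An unadjusted p under 0.05 was reached by 1 of the 28, a probe set for Drosha, and by 3.49% of all tested probe sets. With the pair as a block the counts were again 0 and 1, against 0.0355% and 7.63% of all probe sets. With 2 clones a group the limits on each gene stayed wide, and they are given with the values below. In RNA from whole cultures, fewer cells with a transcript and less RNA per cell cannot be told apart.

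By direction within the pairs the set was mixed. At the brightest probe set of each gene, 9 genes were tested and Ago4 was too dim. Dgcr8, Tarbp2 and Ago2 were higher in both AID-silenced clones, as were 26.7% of all 10475 tested genes. Drosha, Xpo5, Dicer1 and Tnrc6a were lower in both, as were 27.5% of all tested genes. Ago1 and Ago3 went opposite ways in the pairs, as did 45.8% of all tested genes. When all probe sets of a gene were averaged, 2 members were higher and 3 were lower in both pairs. By that measure 26.9% of all tested genes were higher and 26.9% lower. The median difference was −0.15 in pair 1 and −0.08 in pair 2, against 0.001 and −0.008 over all tested genes. All 9 genes stayed within 1.5-fold in both pairs at that probe set, as did 70.3% of all tested genes. The signals of the groups did not overlap for 3 of the 9 genes, with 28.7% among all tested genes, so this share lies near the background. At these probe sets 0 genes were at least 2-fold apart in pair 1 (5.08% of all tested genes), in pair 2 (6.94%) or in both in the same direction (1.01%).

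Over the 28 tested probe sets, 5 were higher in both AID-silenced clones (27.8% of all tested probe sets), 9 were lower in both (26%) and 14 went opposite ways (46.2%). The groups did not overlap at 6 of the 28 (29.5% of all), 1 higher (15.5%) and 5 lower (14%). A difference of at least 2-fold was seen at 1 probe set in pair 1 (4.8%) and at 2 in pair 2 (7.27%), both of them lower (2.95%), and at 0 in the same direction in both pairs (0.87%).

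**Figure D1:**
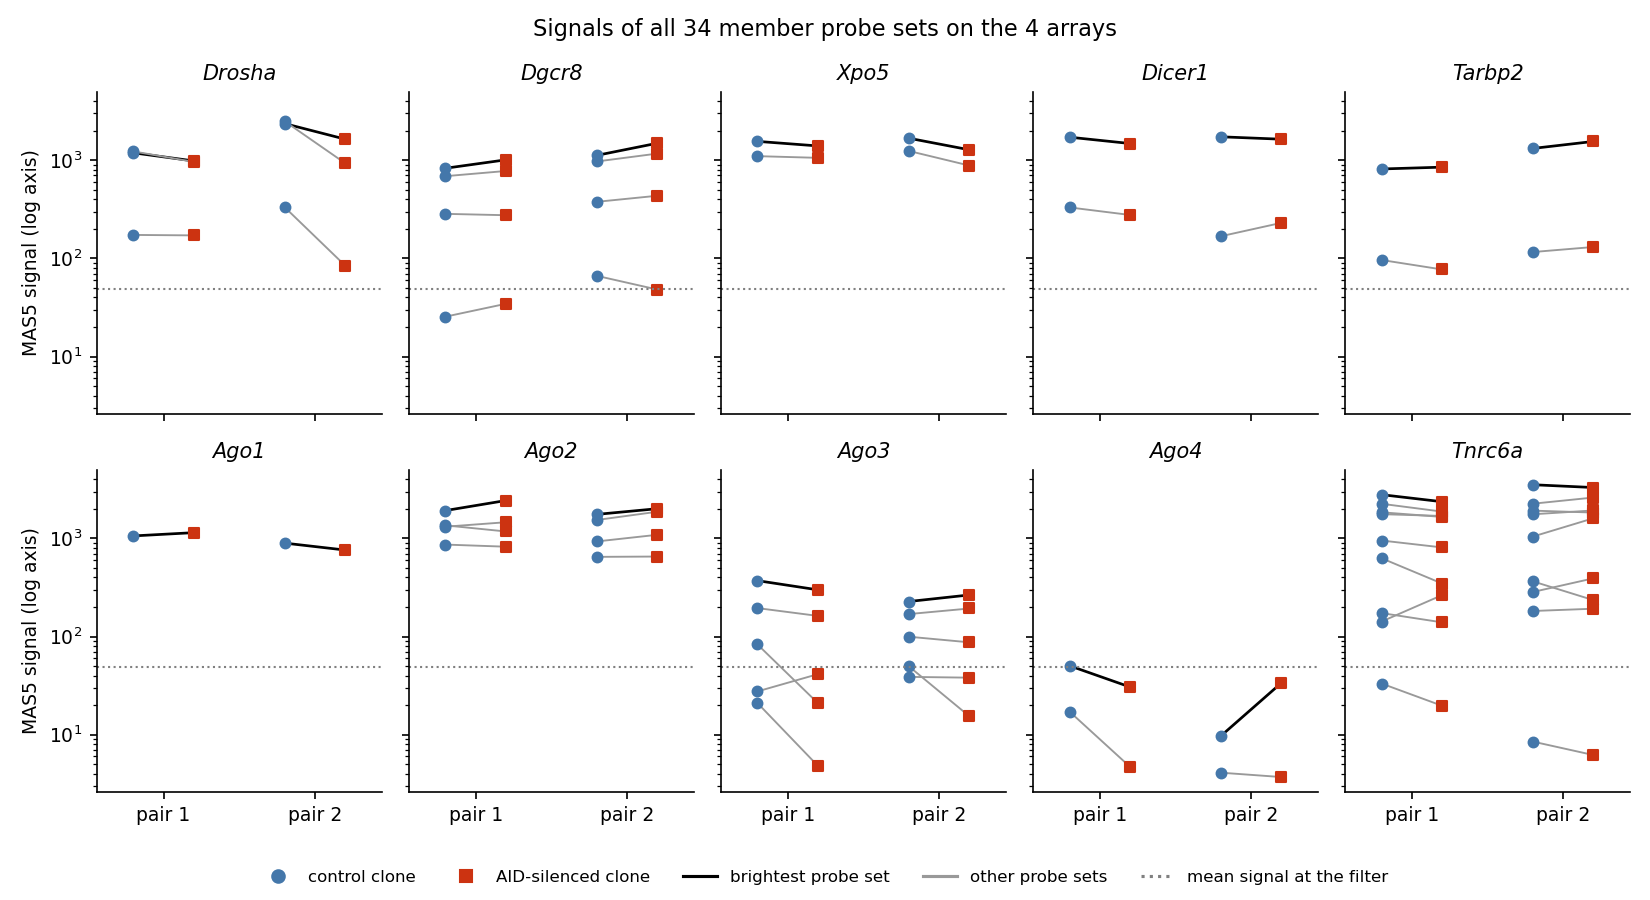
MAS5 signal (log axis) of all 34 member probe sets, with a line joining the control clone (blue circles) and the AID-silenced clone (red squares) of each pair. Black lines mark the brightest probe set of a gene and the dotted line the mean signal of 49.4 at which probe sets entered the test. The signals of Drosha are highest in the control clone of pair 2, and both probe sets of Ago4 lie near or below the dotted line.

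Drosha, the nuclear RNase III enzyme, showed the widest differences of the set and had all 3 of its probe sets lower in both AID-silenced clones. Probe set 1428656_at gave signals of 1232 and 2499 in controls (pair 1, pair 2), against 964 and 933 after silencing. The groups did not overlap there, but the control clone of pair 2 stood alone above the 3 others. The log2 fold change was −0.88 ± 0.355 (SE over 2 clones per group, 95% interval −1.73 to −0.03, limma adjusted p = 0.9996). Within the pairs the differences were −0.35 and −1.41. The dimmer probe set 1438440_at read 174 and 333 in controls, against 172 and 84.4 after silencing. Pair 1 thus held nearly equal signals there (−0.015), and the difference came from pair 2 (−1.80).

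The remaining and brightest Drosha probe set, 1438505_s_at, gave a smaller difference and an overlap of the groups. Its suffix marks probes that match more than a single transcript. It read 1191 and 2365 in controls, against 985 and 1642 after silencing, a log2 fold change of −0.40 ± 0.40 (SE over 2 clones per group, 95% interval −1.35 to 0.56, limma adjusted p = 0.9996). In the AID-silenced clone of pair 2 this probe set was above that of pair 1, whereas the other pair of Drosha probe sets was not. Leaving out the control clone of pair 2 turned its log2 fold change to 0.094. The same omission took 1428656_at to −0.37 and 1438440_at to −0.47, where leaving out the control clone of pair 1 gave −1.38 and −1.34.

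Most of the genes beside Drosha on chromosome 15 had the same clone standing apart. The 10 tested genes on each side, in the gene order of the RefSeq table, were looked at for every member after its values had been seen. Of the 20 neighbours of Drosha, 15 had their highest signal in the control clone of pair 2, as had 25.2% of all tested genes. Their median difference between the control clones, pair 2 minus pair 1, was 0.71, and that between the AID-silenced clones was 0.03. The median difference of AID-silenced minus control was −0.02 in pair 1 and −0.87 in pair 2, and 8 of the 20 were at least 2-fold lower in pair 2, against 3.2% of all tested genes. Tars, a threonyl-tRNA synthetase, gave 6107 and 13275 in controls, against 5202 and 4780 after silencing. Zfp622 gave 7882 and 20853 against 7946 and 7718. Sub1, a transcriptional coactivator, gave 19426 and 30930 against 19439 and 17299. Of the 20, 8 were lower in both pairs, against 27.5% of all tested genes, and 1 was higher in both, against 26.7%. For 6 of the 20 both AID-silenced signals lay below both controls, against 14.4% of all tested genes. Among these was Ank, with 1710 and 3105 in controls, against 219 and 239 after silencing. The part of this regional difference in the values of Drosha was not tested.

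Dgcr8, the RNA-binding subunit of the Microprocessor, lay on the other side of 0. Its brightest probe set, 1455311_at, gave 830 and 1122 in controls, against 1011 and 1493 after silencing. Both AID-silenced clones exceeded their own control, but the groups overlapped, since both clones of pair 2 read higher than their counterparts in pair 1. The log2 fold change was 0.34 ± 0.30 (SE over 2 clones per group, 95% interval −0.37 to 1.05, limma adjusted p = 0.9996), with 0.28 in pair 1 and 0.41 in pair 2. Leaving out the AID-silenced clone of pair 2 took it to 0.07, and leaving out that of pair 1 to 0.62. A second probe set, annotated to the same sequence record, gave 0.17 and 0.26, and another gave −0.04 and 0.20. The remaining one was dim, at 25.5 and 66.5 in controls, against 34.5 and 48.2 after silencing, and was not tested.

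The neighbours of Dgcr8 on chromosome 16 were also higher in the AID-silenced clones. Of 20 neighbours, 14 were higher in both pairs, against 26.7% of all tested genes, and 2 were lower in both. Their medians of 0.32 and 0.34 lay close to the 0.28 and 0.41 of Dgcr8. Cdc45, a subunit of the replicative helicase, gave 1542 and 1544 in controls, against 2657 and 2745 after silencing. The adjacent Trmt2a, a tRNA methyltransferase, gave 2597 and 2580 against 3538 and 4195, and Tango2, on the other side, 453 and 498 against 586 and 700. The part of this regional difference in the values of Dgcr8 was not tested. Around the 8 other members the neighbours had medians between −0.12 and 0.09 in pair 1 and between −0.20 and 0.05 in pair 2.

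**Figure D2:**
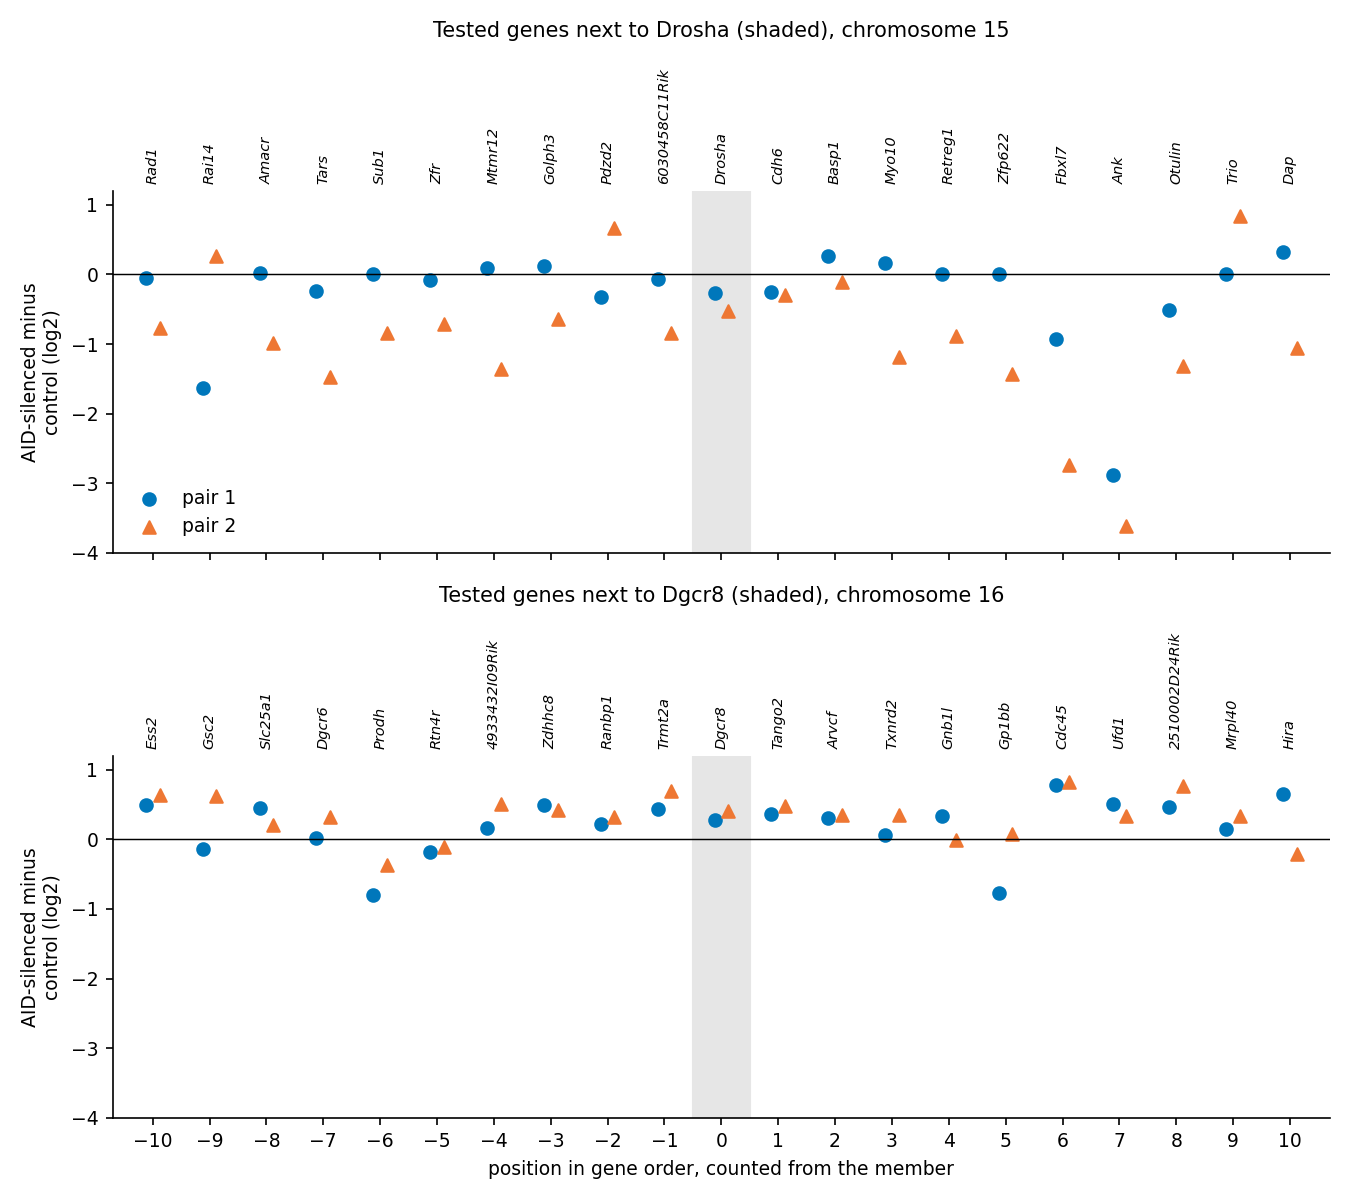
Difference of AID-silenced minus control (log2) in pair 1 (circles) and pair 2 (triangles) for the 10 tested genes on each side of Drosha and Dgcr8, each at its brightest probe set, against position in gene order. Around Drosha the values of pair 2 have a median of −0.87 and those of pair 1 −0.02, and around Dgcr8 both pairs lie mostly above 0.

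The 250 bases before the annotated starts of these Microprocessor genes are shown as background (RefSeq, GRCm38.p6, chr15:12824565-12824814 plus strand for Drosha and chr16:18289169-18289418 minus strand for Dgcr8). Their relation to the signals was not tested. Capitals mark matches on either strand to the CCAAT box (CCAAT), the GC box (GGGCGG), the E-box (CACGTG) or an ETS core (CCGGAAG), which overlap nowhere by these letters.
Drosha: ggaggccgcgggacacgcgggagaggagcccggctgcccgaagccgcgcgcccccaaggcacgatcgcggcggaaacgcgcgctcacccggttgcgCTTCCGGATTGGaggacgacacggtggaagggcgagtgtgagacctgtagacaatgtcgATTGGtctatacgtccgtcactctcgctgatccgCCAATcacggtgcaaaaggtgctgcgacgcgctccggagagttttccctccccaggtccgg
Dgcr8: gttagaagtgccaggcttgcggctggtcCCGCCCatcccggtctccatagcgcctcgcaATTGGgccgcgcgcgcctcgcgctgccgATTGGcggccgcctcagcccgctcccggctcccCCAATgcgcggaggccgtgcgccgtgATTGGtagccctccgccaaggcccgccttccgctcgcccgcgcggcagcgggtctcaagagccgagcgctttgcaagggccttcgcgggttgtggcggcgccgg
The window of Drosha held 3 CCAAT boxes and 1 ETS core, and that of Dgcr8 held 4 CCAAT boxes and 1 GC box. Windows were matched for 9 of the 10 genes. A CCAAT box was found in 5 of them, against 33.8% of 32851 windows, a GC box in 7, against 32.7%, an ETS core in 2, against 6.91%, and an E-box in 0, against 6.02%. The windows were 66.4% G and C for Drosha and 73.6% for Dgcr8, with a median of 52.4% over all windows.

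Xpo5, the exporter of hairpin precursors, was lower in both AID-silenced clones at both of its probe sets, and neither had overlapping groups. Its brighter probe set gave 1559 and 1679 in controls, against 1400.4 and 1280 after silencing, and the other 1102 and 1245 against 1059 and 884. The log2 fold changes were −0.27 ± 0.22 and −0.27 ± 0.24 (SE, with n = 2 per group, limma adjusted p = 0.9996 for both). Their 95% intervals, −0.80 to 0.255 and −0.85 to 0.31, include no change and leave out an increase of 1.5-fold. In each case the difference in pair 2 was the larger, at −0.39 and −0.49 against −0.15 and −0.06 in pair 1.

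Dicer1, which cuts precursors to duplexes, gave nearly level signals at its brightest probe set. They were 1720 and 1736 in controls, against 1483 and 1640 after silencing, so that the groups did not overlap although they differed little (log2 fold change −0.15 ± 0.215, SE, n = 2 per group, 95% interval −0.66 to 0.37, limma adjusted p = 0.9996). The second, dimmer probe set gave 331 and 168 against 277 and 230 and went opposite ways in the pairs.

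Tarbp2, the partner of Dicer1, lay further apart between the pairs than between the groups, though neither difference passed the adjusted test. Its brightest probe set gave 816 and 851 in the control and AID-silenced clones of pair 1 and 1321 and 1557 in those of pair 2. Between groups the log2 fold change was 0.15 ± 0.38 (SE over 2 clones per group, 95% interval −0.76 to 1.05), while pair 2 exceeded pair 1 by 0.77 ± 0.19 (SE, with n = 2 per pair, limma adjusted p = 0.255). This was the lowest adjusted p of the set for the pairs. The fit for the pairs took the control and AID-silenced clone of a pair as replicates, so its SE rests in part on their difference. The dimmer probe set, whose suffix marks possible cross-hybridisation, gave 96.4 and 116 in controls, against 77.2 and 131 after silencing.

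Among the Argonautes, Ago2, the member with strong slicing activity, was the 1 gene of the set whose brightest probe set was higher in every AID-silenced clone than in any control. That probe set gave 1922 and 1757 in controls, against 2433 and 2007 after silencing, a log2 fold change of 0.26 ± 0.22 (SE over 2 clones per group, 95% interval −0.27 to 0.80, limma adjusted p = 0.9996). The suffix of this probe set, like that of the brightest Drosha probe set, marks probes that match more than a single transcript. Without the AID-silenced clone of pair 1 the log2 fold change was 0.13. Groups apart in this direction were seen for 14.3% of all tested genes. The 3 other probe sets gave log2 fold changes of 0.19, 0.04 and −0.03, with overlapping groups, and 2 of the 4 were higher in both pairs. Ago2 lies on chromosome 15 as do Drosha and Tarbp2, but the neighbours of Ago2 had medians of 0.09 and 0.002.

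Ago3, Ago1 and Ago4 follow each other in that order on chromosome 4 with 0 protein-coding genes between them in the RefSeq table, and they did not differ together. Ago1 had 1 probe set, with 1060 and 896 in controls, against 1145 and 761 after silencing, with differences of 0.11 in pair 1 and −0.23 in pair 2. Ago3 gave the opposite signs at its brightest probe set, at −0.30 and 0.21, with 371 and 228 against 299 and 265. A dim Ago3 probe set, 1441063_at, was the 1 member probe set at least 2-fold apart in pair 1, at −1.43, against 4.8% of all tested probe sets. Its signals were 83.1 and 99.6 in controls, against 20.9 and 87.3 after silencing. The 20.9 lay below the highest bacterial control of its array, 27.3.

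Ago4 was near background in these clones. Its 2 probe sets gave 50.4 and 9.7 with 30.6 and 33.7, and 17.2 and 4.1 with 4.7 and 3.7, in the control and AID-silenced clones. The second lay below the highest bacterial control signal on every array, and the first lay above it on 2 of 4. Of the 5 probe sets of Ago3, 2 were also under the filter.

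Tnrc6a, the GW182 scaffold, was covered by 9 probe sets, of which 8 were tested. Of these 8, 0 were higher in both AID-silenced clones, 2 were lower in both and 6 went opposite ways, where 46.2% of all tested probe sets did so. The brightest gave 2791 and 3524 in controls, against 2365 and 3299 after silencing (log2 fold change −0.17 ± 0.26, SE, n = 2 per group, 95% interval −0.78 to 0.45, limma adjusted p = 0.9996). The most even probe set gave 1766 and 1918 against 1693 and 1834, about −0.06 in each pair. Over the 8 probe sets log2 fold changes ran from −0.19 to 0.19.

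**Figure D3:**
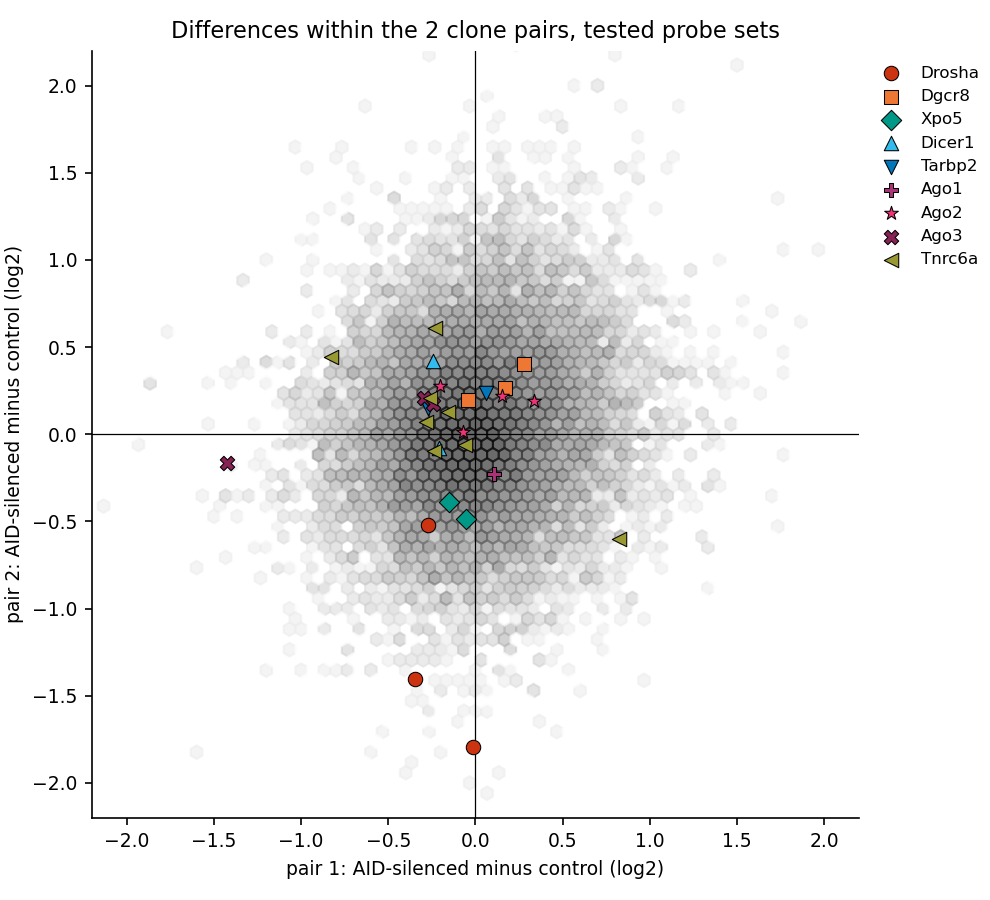
Difference of AID-silenced minus control (log2) in pair 1 (horizontal) and pair 2 (vertical) for tested probe sets, with all probe sets as grey bins (darker for more, log scale) and the 28 tested member probe sets as symbols. Most members lie near the origin, 2 Drosha probe sets lie below −1 in pair 2 and 1 Ago3 probe set lies at −1.43 in pair 1.

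Like the array as a whole, most members were further apart between the pairs than between the groups. At 21 of the 28 tested probe sets the difference between pairs exceeded that between groups, as it did at 59% of all tested probe sets. The median sizes were 0.42 between pairs and 0.15 between groups for the members, and 0.28 and 0.20 over all tested probe sets. Of the 28, 0 passed the adjusted test for the pairs (limma), as did 0% of all tested probe sets, and 3 had an unadjusted p under 0.05, against 13.5% of all. Of these, Drosha at 1438505_s_at was higher in pair 2 by 0.85 ± 0.24 (SE, with n = 2 per pair, limma adjusted p = 0.269) and Dgcr8 at 1435439_at by 0.53 ± 0.21 (adjusted p = 0.346), with Tarbp2 as given above.

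The wider pathway was described with lists of 71 further genes, of which 67 were measured and 55 were tested at the brightest probe set. Of these 55, 0 passed the adjusted limma test, with or without the pair as a block, and an unadjusted p under 0.05 was reached by 1 without the block (Mtpap) and by 5 with it (Mtpap, Eif2ak2, Fkbp4, Hnrnpa1 and Smad3), beside the 3.49% and 7.63% of all probe sets. Lower signals in both AID-silenced clones were found for 30 of the 55 (54.5%) and higher signals for 6 (10.9%), beside 27.5% and 26.7% of all tested genes. Their median difference was −0.08 in the first pair and −0.12 in the second. When all probe sets of a gene were averaged, 16 of the 55 were lower and 9 were higher in both pairs, where 26.9% of all tested genes were lower and 26.9% higher, so the imbalance depends on the choice of probe set.

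Of cofactors of the Microprocessor and other nuclear steps, 10 of 14 tested were lower in both AID-silenced clones and 0 were higher. Of all tested genes, 27.5% were lower and 26.7% were higher. The list medians were −0.17 and −0.12. Counts for this and the other lists are given at the brightest probe set only. Khsrp, which binds loops of precursor hairpins, gave 2825 and 2912 in controls, against 2260.0 and 2261 after silencing. The differences of −0.32 and −0.36 were even and the groups did not overlap, as for 14.4% of all tested genes in this direction. The suffix of this probe set marks possible cross-hybridisation. Smad3, a TGF-beta signal transducer that can also bind the Microprocessor, gave 239 and 592 against 193 and 162. Adarb1, which edits adenosines in double-stranded RNA, gave 158 and 193 against 124 and 155. Smad3, like Drosha, was highest in the control clone of pair 2, and its difference was −1.78 in pair 2 and −0.285 in pair 1.

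Of partners in dicing and Argonaute loading, 6 of 10 were lower in both pairs and 2 were higher, beside 27.5% and 26.7% of all tested genes. Fkbp4, a co-chaperone of Hsp90, gave 5588 and 5715 in controls, against 4047 and 4355 after silencing, and Mov10, an RNA helicase, 114 and 96.0 against 92.9 and 40.7. Eif2ak2, the kinase PKR that senses double-stranded RNA and is induced by interferon, went the other way, with 196 and 128 against 372 and 226. Its log2 fold change was 0.81 ± 0.38 (SE over 2 clones per group, limma adjusted p = 0.9996). Its groups did not overlap, as for 14.3% of all tested genes in this direction.

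Of Tnrc6a relatives and the deadenylation and decapping machinery, 9 of 22 were lower in both pairs, 3 were higher and 10 were opposite. The shares of all tested genes were 27.5%, 26.7% and 45.8%. Xrn1, which degrades decapped mRNA, gave 495 and 486 in controls, against 324 and 386 after silencing. Dcp1a, a decapping cofactor, gave 1431 and 1111 against 1691 and 1496, and Lsm14a, a P-body protein, 2158 and 2148 against 1896 and 1818. Of factors for microRNA ends and turnover, 5 of 8 were lower in both and 1 was higher, beside the same 27.5% and 26.7%. The terminal uridylyltransferase Tut4 differed by −0.20 and −0.29, the exonuclease Eri1 by −0.155 and −0.05 and the mitochondrial poly(A) polymerase Mtpap by 0.78 and 0.44. Of 9 Piwi-pathway genes, 8 were below the filter, and Piwil2, the tested one, went opposite ways.

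**Figure D4:**
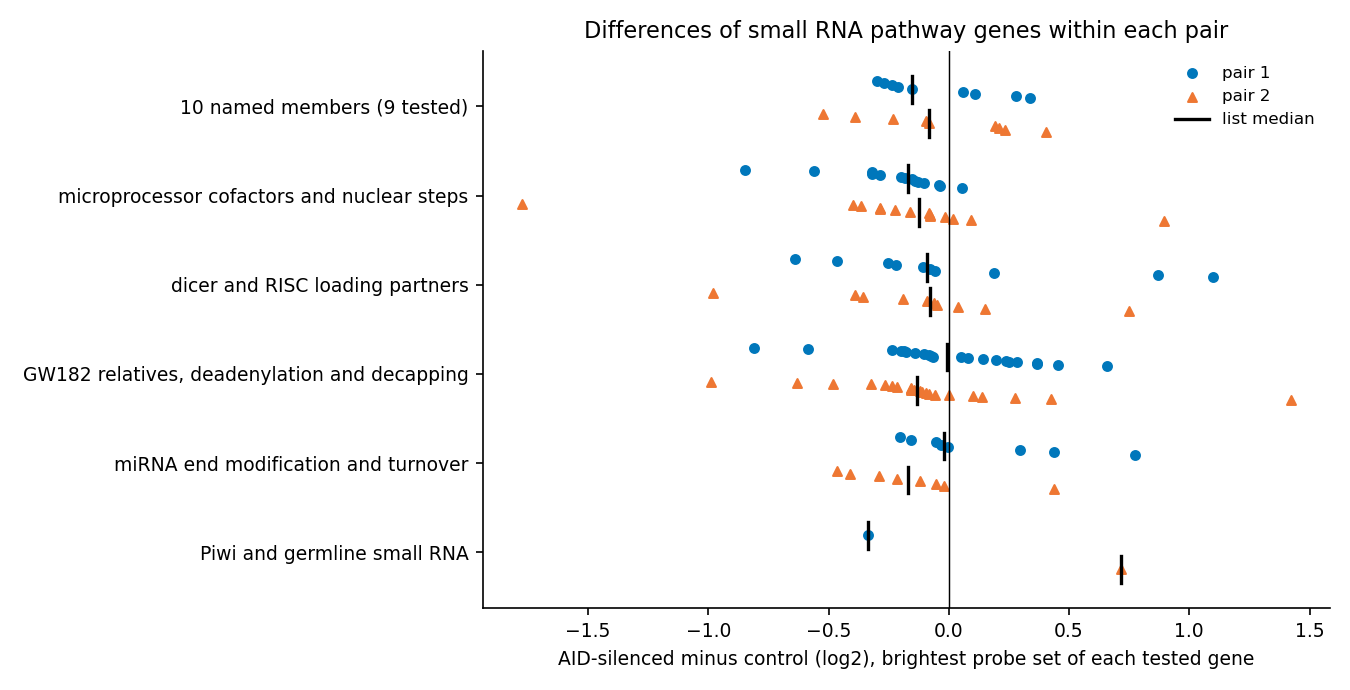
Difference of AID-silenced minus control (log2) in pair 1 (circles) and pair 2 (triangles) for the 9 tested members and the 55 tested genes of 5 pathway lists, at the brightest probe set of each gene. Black bars mark list medians, which lie between −0.17 and −0.008 in the nuclear, dicing, decapping and turnover lists.

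Primary microRNA transcripts, the substrates of the Microprocessor, had 16 probe sets with a single microRNA symbol, of which 4 were bright enough to be tested. These probe sets were picked after the values of the members were known. The transcript of Mir142, a microRNA gene of blood cells, gave 575 and 237 in controls, against 436 and 265 after silencing, and went opposite ways in the pairs (−0.385 and 0.15). Mir22hg gave 269 and 446 against 203 and 407, and was lower in both (−0.38 and −0.13). Their mature products are shown as the guides these transcripts encode, with the seed in capitals (RefSeq, GRCm38.p6, chr11:87756867-87756887 and chr11:87756903-87756925 for the 5p and 3p arms of miR-142a, chr11:75463734-75463755 and chr11:75463772-75463793 for those of miR-22, all on the plus strand).
miR-142a-5p: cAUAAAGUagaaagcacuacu
miR-142a-3p: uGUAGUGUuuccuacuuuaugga
miR-22-5p: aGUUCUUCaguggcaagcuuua
miR-22-3p: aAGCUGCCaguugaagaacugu
Mir670hg was higher in both AID-silenced clones at its tested probe set, at 80.8 and 37.5 against 101 and 93.7. The 37.5 lay below the highest bacterial control of its array, 38.8. Signals higher in both pairs were seen at 27.8% of all tested probe sets. Mir1949 went opposite ways. Of the 4, 0 passed the adjusted test (limma, adjusted p = 0.9996 for each) and 0 had an unadjusted p under 0.05.

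Over all 10 members, Ago4 had the widest range over the 4 arrays at its brightest probe set, 1.37 on the log2 scale, at signals that did not pass the filter. The tested genes with the nearest centred log2 values were Pnmt, Il17b and Ccdc107, at root mean square distances of 0.053, 0.076 and 0.081. Among the 9 tested members Drosha had the widest range, 1.25. The genes nearest to its brightest probe set over these 4 arrays were Impdh1, Tsr1 and Tsr2, at root mean square distances of 0.064, 0.065 and 0.066. The other Drosha probe sets were not higher in the AID-silenced clone of pair 2 than in that of pair 1, unlike the brightest. Impdh1, an enzyme of guanine nucleotide synthesis, gave 2312 and 4342 in controls, against 1992 and 3397 after silencing. These 3 genes lie on chromosomes 6, 11 and X, away from Drosha. With 4 arrays and 10475 genes, close matches of this kind are a description only.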

How the data were processed

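Total RNA from 4 clones was hybridised to 1 Affymetrix mouse array each. The authors deposited linear probe set intensities, for which the submitters' processing notes name MAS5. The 2% trimmed mean was checked and equalled 500.0 on every array, so no scaling was added. Of 45101 probe sets, 64 Affymetrix controls were left out. Differences were taken on log2(signal + 16), and testing was limited to the brighter part of the array (quantile 0.5 of the mean log2 signal, about 49.4), which left 22519 probe sets. Genes were named from the platform annotation (34945 probe sets with 1 symbol, 932 with several, 9160 unlisted), and each gene was read at the probe set with the highest mean. Gene order and sequences came from RefSeq tables of assembly GRCm38.p6.

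The test was that of limma 3.58.1 under R 4.3.3 with statmod 1.5.0 (lmFit, then eBayes with a trended, robust prior), with Benjamini-Hochberg adjustment over all tested probe sets. The step was tested on simulated arrays with independent noise and no pairs, so that test does not cover the differences between pairs seen here. The labels call the clones pairs without saying what a pair shares. As a check of the numbering, pair 2 minus pair 1 in controls was set against the same difference after silencing (Pearson r = 0.306 and Spearman rho = 0.336 over tested probe sets, which are not independent). The pair entered as a block in an alternative. All members were named, with up to 3 genes per pathway list that had the same sign in both pairs, ranked by the smaller difference, and the 3 genes nearest to the most variable member (Ago4). Since Ago4 did not pass the filter, the same was added for Drosha, the most variable tested member. Neighbouring genes, taken by gene order, and primary transcripts were looked at after the values of the members were seen. The neighbours and transcripts named in the text were picked with their own values known. Members and lists were chosen with earlier results of these data known. Figures were drawn with matplotlib 3.10.9. The number of arrays limits the precision.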

Additional observations from a re-analysis of the deposited data

Results flagged for a closer look

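At 2 tested Tnrc6a probe sets the pairs differed in direction by at least 0.4 on the log2 scale in each pair. At 1434898_at the difference of AID-silenced minus control was −0.83 in pair 1 and 0.44 in pair 2, with signals of 628 and 285 in controls against 347 and 392 after silencing. At 1439246_x_at it was 0.83 in pair 1 and −0.60 in pair 2, with 142 and 365 against 264 and 235. The difference between the pairs was not tested, since each pair holds 1 array per group.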

How the results depend on the processing

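The fits were repeated with other array scaling (quantile or median), other pseudocounts (1 or 64), a looser or stricter low-signal filter, the pair as a replicate block, the mean of probe sets, and each array left out. Under every setting that refitted the groups, 0 member probe sets were called. Over the whole array 2 probe sets were called without the pair and 8 with it as a replicate block, which changed no call of a member. Leaving out 1 array gave from 0 (the silenced clone of pair 1 omitted) to 146 calls (control of pair 1 omitted), with 52 when the control of pair 2 was omitted. For pair 2 against pair 1, 0 were called, and 4 with the group as a term, of which 0 were members. Among pathway genes 30 were lower in both pairs, but 16 with the mean of probe sets, where 9 rather than 6 were higher in both.

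Of 98 refits of the 9 member genes at their brightest probe sets, 9 turned the sign, all on leaving out 1 array, and the lowest adjusted p (limma) was 0.552. When 1 array was left out, Drosha ranged from −0.886 to 0.094, the latter with the control of pair 2 omitted. Tarbp2 ranged from −0.282 to 0.577, and was also negative (−0.195) with the control of pair 1 omitted. Ago1 ranged from −0.35 to 0.229 (0.059 with the control of pair 1 omitted), Ago3 from −0.379 to 0.29 (0.037 with the silenced clone of pair 2 omitted) and Tnrc6a from −0.405 to 0.073 (0.001 with the control of pair 2 omitted). The other 4 genes kept their sign at these probe sets. Dgcr8 ranged from 0.066 to 0.621, Ago2 from 0.126 to 0.402, Dicer1 from −0.219 to −0.075 and Xpo5 from −0.335 to −0.206. The other tested Dgcr8 probe sets turned negative with the control of pair 1 or the silenced clone of pair 2 omitted. Those values were −0.026 and −0.072 at 1435439_at, and −0.117 and −0.238 at 1422981_at. With all arrays, Dicer1 at 1460571_at (0.088) and Ago2 at 1455294_at (−0.03) had the sign opposite to their brightest probe set. The cause of these changes was not tested. With 1 array left out, the lone clone of its group is assumed to vary like the other group. With 2 clones a group the stated intervals are wide, and a member that was not called may still differ. The smallest difference that could be detected was not worked out.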
